A study of Mus musculus with 9 samples.

Results

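The genes described here encode the MYC, MAX and MXD network of transcription factors: Myc, Mycn, Mycl, Max, Mxd1, Mxi1, Mxd3, Mxd4, Mnt and Mga. They were chosen by name, and all 10 were found among the 54281 genes of the deposited tables. The cells were Comma-1D, an established epithelial line from mouse mammary gland, sorted by the surface proteins Sca-1 and EpCAM into population B (Sca-1 high, EpCAM low), population L (Sca-1 low, EpCAM high) and population bi (both high). Each population was sequenced as a control, after transduction with an activated MYC oncogene and after transduction with an activated Her2 oncogene, 1 library for each, 9 in all. All arms were grown with serum, murine EGF and human insulin, per the labels' protocols. The labels give neither the species of the transgenes, nor whether controls carried a vector, nor whether the libraries came from separate cultures. The p-values therefore measure only the spread between these libraries.

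Proteins of this network share a basic helix-loop-helix leucine zipper and bind DNA as pairs with MAX, at sites called E-boxes. MYC, MYCN and MYCL paired with MAX activate genes of growth and ribosome production. The MXD proteins and MNT compete for MAX and recruit SIN3 and histone deacetylase corepressors, and MGA joins MAX to a variant Polycomb complex. In many tissues MXD genes are known to be raised as cells leave the cycle and differentiate, while Mxd3 is known as a member found in dividing cells.

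Reads per library ran from 46.9 to 98.9 M. Erbb2, which encodes Her2, was highest in the Her2 library of every population, and Epcam was at 0.764 CPM or below in the B libraries and at 252 CPM or above in the others. Ly6a, which encodes Sca-1, was at 2.37 to 12.8 CPM in the L libraries and at 15.9 to 140 CPM in the others. CPM stands for read counts scaled to a common library size after TMM scaling of the libraries. The summed level of 10 epithelial markers ran from 1903 to 7213 CPM. Of these 10, 6 were called higher and 1 lower in L than in B (median log2 fold change 7.29), beside 11.5% and 9.26% of all genes. In bi 6 were called higher and none lower than in B (median 3.91), beside 7.88% and 5.11%. Epcam, a protein of the sort, was among those higher in both. The marker lower in L was Trp63, at a mean of 231.1 CPM against 593.5 in B. Krt14 was at 1473, 1380 and 757.7 CPM in B control, B MYC and B Her2. It was at 1128, 586.8 and 603.3 CPM in the same arms of L and at 1544, 2422 and 1285 CPM in those of bi. The B libraries had a mean of 1.02 CPM for the adhesion gene Cdh1, against 480 for L and 263 for bi, and Krt8 was at 0 in B MYC and Krt19 in B Her2. The summed level ran from 19.0 to 150 CPM for 8 fibroblast markers and was highest in the 3 B libraries. Of the 7 tested, 5 were called lower in L and 3 in bi than in B, beside 9.26% and 5.11% of all genes. The sum was at most 6.37 CPM for 6 endothelial markers and at most 2.09 CPM for 8 immune markers. In bulk RNA, fewer cells of a type and less RNA per cell cannot be told apart. The summed level of 20 proliferation genes was 1341, 1907 and 1777 CPM in B MYC, L MYC and bi MYC, against 2230, 3940 and 4401 CPM in the controls and 1839, 3446 and 3395 CPM in the Her2 libraries of the same populations.

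Promoter sequences were read from RefSeq (build GRCm38.p6, the mm10 assembly) from 250 bases before to 50 bases after each annotated start. Of the 10 members, 9 had at least 1 window, 11 windows in all. Myc had none, so its promoter was not searched. The E-box CACGTG, which reads the same on both strands, was found in the windows of Max, Mnt and Mxd4, and in 7.15% of the 32851 windows of all genes. The E2F motif TTTGGCGC, searched with its reverse complement GCGCCAAA, was found in 0.514% of all windows. Among the 9 members searched it was found in the window of Mycn alone, at 2 places. The 4 stretches are shown 5′ to 3′ on the gene's strand because Mxd4 and Mycn are among the members that differed most with MYC, with Mnt and Max as members that share the E-box. Capitals mark the motifs.
Mxd4: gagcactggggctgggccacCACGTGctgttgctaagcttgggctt
Mnt: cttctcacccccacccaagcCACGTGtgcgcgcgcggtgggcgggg
Max: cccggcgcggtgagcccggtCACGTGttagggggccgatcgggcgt
Mycn: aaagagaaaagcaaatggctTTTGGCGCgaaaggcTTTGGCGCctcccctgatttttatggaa
They lie at chr5:34187904-34187949, chr11:74830781-74830826, chr12:76962226-76962271 and chr12:12941977-12942039, in this order, all but Mnt on the minus strand. The E-box begins 219 bases before the annotated start of Mxd4, 123 bases before that of Mnt and 3 bases before that of Max. A match says only that these letters are present.

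Myc had the most reads per length of the network in these cells and Mycn the fewest. Levels were compared between genes as CPM per kilobase of annotated exon (GENCODE M21, mm10). The mean over the 9 libraries was 53.3 for Myc, 10.95 for Max, 9.64 for Mga and for Mnt, 6.12 for Mxd4, 4.03 for Mxi1, 3.57 for Mycl, 2.94 for Mxd1, 1.81 for Mxd3 and 0.533 for Mycn. The lowest Myc library (25.1) lay above the highest Mnt library (16.7) and the highest Mxd4 library (16.1). Apart from Myc, neighbours in this order overlapped in their ranges over the libraries. The deposited TPM gave the same first 3 and last 2 genes and exchanged Mnt with Mxd4 and Mycl with Mxd1. The deposited gene lengths behind the TPM are short, 361 to 407 bases for Myc and 300 to 338 for Mxi1, below the shortest GENCODE M21 transcript of each (381 and 833 bases) in at least part of the libraries, so the order per annotated exon is given first.

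**Figure D1:**
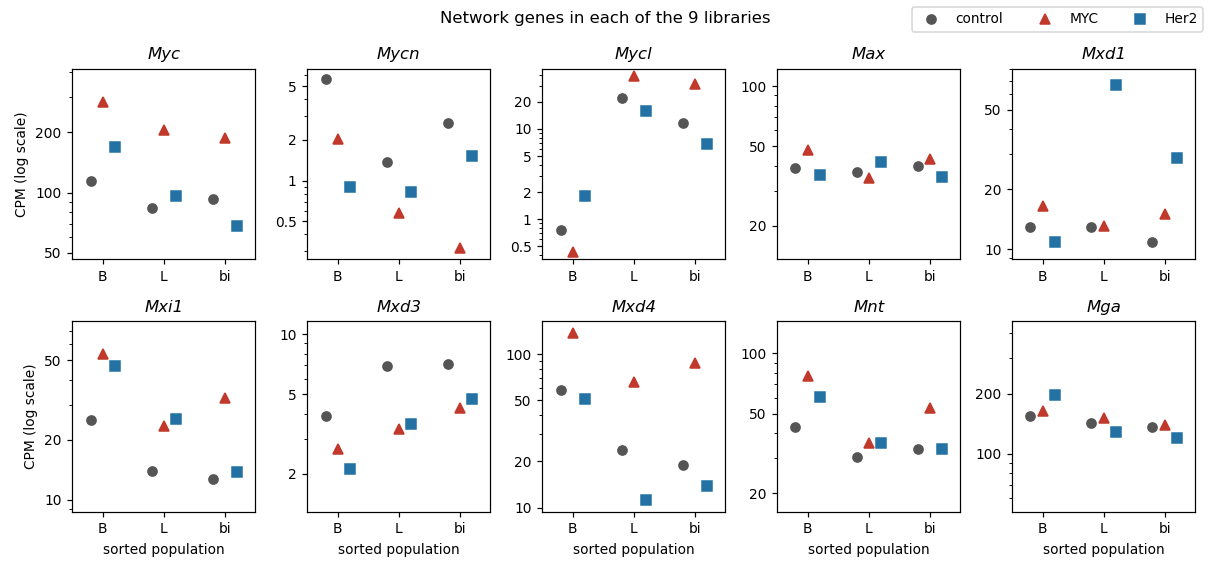
CPM of each network gene (log axis, its range set per gene) in the B, L and bi populations, 1 point per library, grey circles for control, red triangles for MYC and blue squares for Her2. Mxd4 and Myc lie highest in the MYC library of every population, Mycl is lowest in the 3 B libraries, and Mxd1 stands out in L Her2 at 66.4 CPM.

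Myc (ENSMUSG00000022346.15, chromosome 15, 61985391 to 61990374, plus strand) was at 114, 83.3 and 92.6 CPM in the controls of B, L and bi, at 285, 207 and 188 CPM with MYC, and at 169, 96.6 and 68.2 CPM with Her2. All 3 MYC libraries lay above the other 6, and the highest of these 6 was B Her2. With MYC the log2 fold change against control was 1.21 (SE 0.20, adjusted p = 0.0466 by edgeR's quasi-likelihood test, average over the 3 populations), and against Her2 it was 1.09 (SE 0.20, adjusted p = 0.0205). In the MYC arm the reads may include transgene reads. The deposited length of Myc, which Salmon averages over transcripts, was 407, 386 and 377 bases in the B, L and bi MYC libraries. It was 361 to 369 bases in the other 6, a difference whose cause was not tested. The share of all genes with such a difference in length was not computed. The call against control ended without any 1 of 7 of the libraries (all but B Her2 and bi Her2), with an adjusted p of up to 0.333, and the log2 fold change stayed between 1.06 and 1.41. The call against Her2 ended without L MYC, L Her2, bi MYC or bi Her2, with an adjusted p of up to 0.0944.

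Mxd4 (ENSMUSG00000037235.13, chromosome 5, 34173883 to 34187720, minus strand), a MYC antagonist that pairs with MAX, rose with MYC. It was at 58.6, 23.6 and 19.1 CPM in the controls of B, L and bi, at 137, 66.3 and 87.3 CPM with MYC, and at 51.2, 11.3 and 13.7 CPM with Her2. Each MYC library was the highest of its population, and the 3 MYC libraries lay above the other 6. The log2 fold change was 1.66 against control (SE 0.26, adjusted p = 0.0395) and 2.22 against Her2 (SE 0.27, adjusted p = 0.00513). The call against Her2 held without each of the 9 libraries in turn, with an adjusted p between 0.00246 and 0.0230. The call against control ended without B control, L control, L MYC, bi control, bi MYC or bi Her2, with an adjusted p of up to 0.263 and a log2 fold change between 1.40 and 1.93. Between Her2 and control the value was -0.56 (SE 0.26, adjusted p = 0.584), with a lower level in Her2 in all 3 populations.

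Mxd4 reads per 100 Myc reads compare these genes within a library. They numbered 51.5, 48.0 and 30.3 in B control, B MYC and B Her2, 28.4, 32.0 and 11.7 in the same arms of L, and 20.6, 46.4 and 20.2 in bi. In B and L the MYC library thus lay near its control while both genes were higher, and the Her2 library lay lowest. In bi the MYC library lay above the control and the Her2 library, which were alike. These values have 1 library each and no test.

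Mxi1 and Mnt were also higher in the MYC library than in the control of every population, without passing the test over all genes. Mxi1, another MXD family antagonist, was at 25.1, 14.0 and 12.7 CPM in the controls of B, L and bi, at 53.7, 23.4 and 32.4 CPM with MYC, and at 46.6, 25.4 and 13.9 CPM with Her2. The MYC and control groups overlapped only in that B control lay above L MYC. The log2 fold change with MYC was 1.08 (SE 0.24, adjusted p = 0.0838 by edgeR), and DESeq2's Wald test gave an adjusted p of 0.00772. With Her2 it was 0.66 (SE 0.24, adjusted p = 0.435), and bi Her2 was close to bi control. Mnt, the most widely expressed MAX-binding repressor, was at 42.6, 30.2 and 33.1 CPM in the controls, 77.3, 35.6 and 53.3 CPM with MYC and 60.5, 35.4 and 33.4 CPM with Her2. Its log2 fold change with MYC was 0.60 (SE 0.19, adjusted p = 0.177), with the smallest difference in L.

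Mxd3 and Mycn were lower in both oncogene arms than in the control of each population, again without passing the test over all genes. Mxd3 was at 3.91, 6.96 and 7.12 CPM in the controls of B, L and bi, at 2.68, 3.36 and 4.25 CPM with MYC, and at 2.11, 3.55 and 4.76 CPM with Her2. Its log2 fold changes were -0.78 with MYC (SE 0.24, adjusted p = 0.177) and -0.81 with Her2 (SE 0.24, adjusted p = 0.292), both set against the same control libraries. Mycn, the family member best known from the nervous system and embryo, was at 5.61, 1.37 and 2.69 CPM in the controls, at 2.03, 0.571 and 0.315 CPM with MYC, and at 0.901, 0.821 and 1.51 CPM with Her2. These levels rest on few reads, from 316 in B control to 16 in bi MYC. Its log2 fold change was -1.77 with MYC (SE 0.53, adjusted p = 0.162 by edgeR, 0.00772 by DESeq2) and -1.27 with Her2 (SE 0.52, adjusted p = 0.509 by edgeR).

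Mxd1 was higher in L Her2 and bi Her2 than in their controls, without passing the test over all genes. MXD1 is the MXD protein best known from differentiating cells. It was at 13.0, 12.9 and 10.8 CPM in the controls of B, L and bi and at 16.4, 13.0 and 15.1 CPM with MYC, and at 10.8, 66.4 and 28.7 CPM with Her2. L Her2 was the highest library, bi Her2 came next, and B Her2 was level with bi control, the lowest. The average log2 fold change with Her2 was 1.34 (SE 0.47, adjusted p = 0.389), and it was 0.65 (adjusted p = 0.975) without the L Her2 library. The log2 ratio of the single libraries was -0.26 for B, 2.36 for L and 1.41 for bi, a difference that was not tested. L Her2 was also the library with the most Erbb2 reads, at 651 CPM against 189 in B Her2 and 235 in bi Her2, and the part of this in the result was not tested.

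Max and Mga moved least. MAX is the shared partner of the network, and it was at 34.7 to 48.1 CPM in the 9 libraries, a range of 0.47 on the log2 scale. Mga, which encodes the largest protein of the network, was at 120 to 196 CPM, with the highest level in B Her2 and a log2 range of 0.71. In none of the 6 comparisons did either pass the test, and the average log2 fold changes with MYC were 0.12 for Max (SE 0.18) and 0.06 for Mga (SE 0.17). Against B, Mga was at -0.28 in L (SE 0.17) and -0.38 in bi (SE 0.17), lower in every arm.

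In all, 2 of the 10 members were called higher with MYC than in control and none lower, where 0.101% of the 23834 genes tested were called higher and 0.264% lower. Against Her2 the same number was called higher with MYC, beside 2.44% of all genes. Between Her2 and control no member was called, beside 0.021% of all genes, and 4 members had an unadjusted p under 0.05, beside 8.8% of all genes. DESeq2 called Mxd1 alone there (adjusted p = 0.0386). With MYC, 6 of the 10 members were higher than the control in all 3 populations, a pattern of 20.3% of all genes. They were Myc, Mxd4, Mxi1, Mnt, Mxd1 and Mga. Of these, Mxd1 and Mga had average log2 fold changes of only 0.31 (SE 0.45) and 0.06 (SE 0.17). Mxd3 and Mycn were lower in all 3 populations, a pattern of 18.1%. The median log2 fold change of the members with MYC was 0.45, and 0.03 over all genes. The members were chosen with earlier results of these data known, and with MYC itself as the transgene the count includes Myc.

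**Figure D2:**
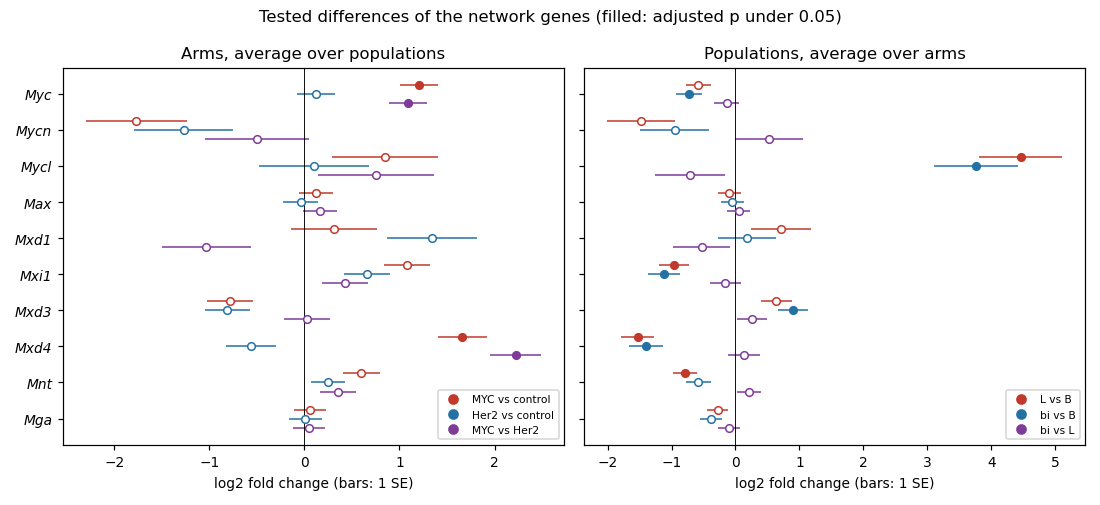
Log2 fold changes of the network genes with 1 SE, for the arms (left, average over populations) and for the populations (right, average over arms), with filled points for an adjusted p under 0.05 in edgeR. Mxd4 with MYC and Mycl in L and bi are the largest filled values, while Max stays near 0 and Mga reaches -0.38 in bi against B, not filled.

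The populations differed most in Mycl. The MYC family gene Mycl (ENSMUSG00000028654.13, chromosome 4, 122995652 to 123002485, plus strand) was at 0.764, 0.434 and 1.80 CPM in B control, B MYC and B Her2, which are 43, 19 and 94 reads. It was at 21.8, 38.8 and 15.9 CPM in the same arms of L and at 11.7, 31.8 and 6.85 CPM in those of bi. All B libraries lay below bi Her2, the lowest of the other 6. The log2 fold change was 4.46 in L against B (SE 0.65, adjusted p = 0.00118) and 3.76 in bi against B (SE 0.65, adjusted p = 0.00518), and both calls held without each of the 9 libraries in turn. Population accounted for 87.9% of the sum of squares of its log2 CPM, against 58.7% of the sum pooled over all tested genes. Within L and bi the MYC library was the highest and the Her2 library the lowest, whereas in B the Her2 library was the highest and the MYC library the lowest.

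The antagonists Mxd4, Mxi1 and Mnt were lower in L than in B. Mxd4 had a log2 fold change of -1.53 in L against B (SE 0.26, adjusted p = 0.00266) and -1.40 in bi against B (SE 0.26, adjusted p = 0.00714), and both calls held without each library in turn. Its mean was 82.1 CPM for B, 33.7 for L and 40.0 for bi, and the groups overlapped because L MYC and bi MYC lay above B control and B Her2. For Mxi1 the values were -0.96 in L (SE 0.24, adjusted p = 0.0203) and -1.12 in bi (SE 0.25, adjusted p = 0.0157). The Mxi1 call in L ended without B MYC, B Her2, L control or L MYC (adjusted p up to 0.0975), and that in bi without B MYC, B Her2 or bi control (up to 0.0570). Mnt was at a mean of 60.1 CPM in B and 33.8 in L, with no overlap between these libraries and a log2 fold change of -0.79 (SE 0.19, adjusted p = 0.0143), a call that ended without B MYC, B Her2 or L MYC (up to 0.0812). In bi against B it had a value of -0.58 (SE 0.19, adjusted p = 0.0699).

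Averaged over the arms, Myc was lower and Mxd3 higher in bi than in B. Myc was at a mean of 189 CPM for B, 129 for L and 116 for bi, with log2 fold changes of -0.58 in L (SE 0.20, adjusted p = 0.0705) and -0.73 in bi (SE 0.20, adjusted p = 0.0438). The Myc call in bi ended without B MYC, B Her2, L control, L MYC, bi MYC or bi Her2, with an adjusted p of up to 0.180. The log2 ratio of single bi and B libraries was -0.3 for control, -0.6 for MYC and -1.31 for Her2. The Myc levels of bi and B overlapped, and the log2 fold change was -0.45 without the Her2 arm. The Myc means include the MYC libraries, whose reads may include transgene reads. Mxd3 was higher, at a mean of 5.38 CPM in bi and 4.63 in L against 2.90 in B, with log2 fold changes of 0.90 in bi (SE 0.24, adjusted p = 0.0379) and 0.64 in L (SE 0.24, adjusted p = 0.0976). All 3 bi libraries lay above all 3 B libraries for Mxd3, and its call held only without L Her2 among the 9 libraries left out in turn (adjusted p up to 0.123 otherwise). Mycn was at a mean of 2.85 CPM for B, 0.919 for L and 1.51 for bi, and its log2 fold change in L was -1.48 (SE 0.53, adjusted p = 0.0806).

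Of the 10 members, 1 was called higher and 3 lower in L than in B, beside 11.5% and 9.26% of all genes, and 2 higher and 3 lower in bi than in B, beside 7.88% and 5.11%. These comparisons share the B libraries. Of the epithelial markers, 6 of 10 were higher in L and in bi than in B, while Trp63 was lower in L. Several fibroblast markers were lower in both, as given above. The part of these markers in the member differences between populations was not tested. Between bi and L edgeR called no member, beside 0.751% of all genes, and none had an unadjusted p under 0.05, beside 8.65% of all genes. DESeq2 also called none there.

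Summed over each family per kilobase of exon, the MYC family (Myc, Mycn, Mycl) was at 43.8, 36.5 and 37.8 in the controls of B, L and bi and at 106, 86.0 and 77.3 in the MYC libraries. Myc made up 84.1% of this sum in L control, where Mycl was a larger part, and 99.3% in B MYC. The MXD family (Mxd1, Mxi1, Mxd3, Mxd4) was at 14.1, 9.60 and 8.64 in the same controls, at 27.4, 14.5 and 19.0 with MYC, and at 15.3, 15.9 and 9.72 with Her2. Its makeup differed between the arms. Mxd4 made up 58.7%, 53.9% and 54.3% of it in B MYC, L MYC and bi MYC, 49.1%, 29.0% and 26.0% in the controls, and 39.5%, 8.34% and 16.7% in the Her2 libraries. The ratio of the MXD to the MYC family was lowest in L MYC, at 0.169, and highest in L Her2, at 0.401. In L Her2 the MXD sum was as large as in L MYC and was mostly Mxd1.

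**Figure D3:**
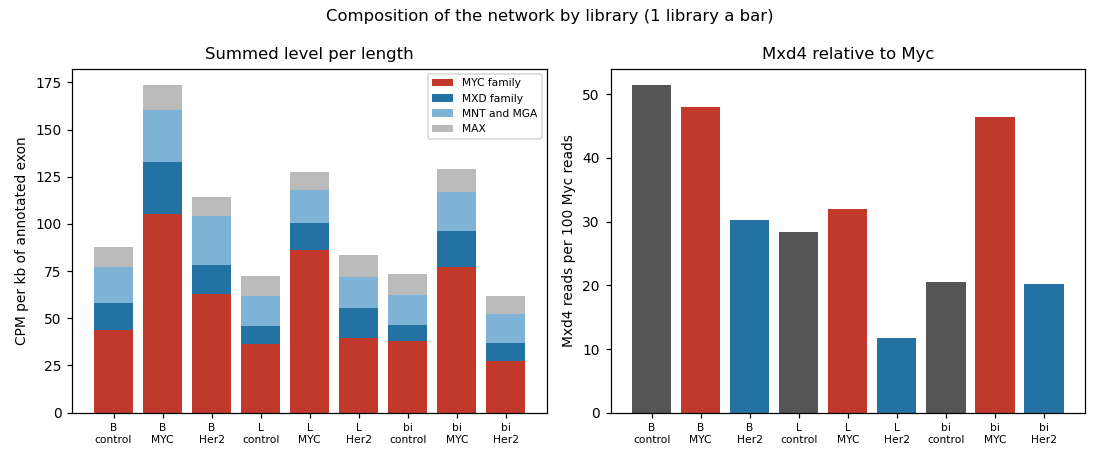
Left, summed CPM per kilobase of annotated exon for the MYC family, the MXD family, Mnt with Mga, and Max in each of the 9 libraries, and right, Mxd4 reads per 100 Myc reads, grey for control, red for MYC and blue for Her2. The MYC family sum is highest in B MYC at 106, and Mxd4 is lowest relative to Myc in L Her2 at 11.7 reads.

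Arm and population shared the variation of the members unevenly. Arm held 69.9% of the sum of squares of log2 CPM for Myc, 62.0% for Mxd4, 48.9% for Mycn and 47.5% for Mxd3. It held 20.5% of the sum pooled over all tested genes. That pooled sum weighs the most variable genes most, so its shares are not those of a typical gene. Population held 65.5% for Mga, 58.6% for Mnt and 50.8% for Mxi1, against 58.7% of the pooled sum. Mnt lay at that pooled value and Mxi1 below it. The part that neither explains, which includes different responses of the populations as well as library noise, was 71.8% for Max and 46.1% for Mxd1, and 4.42% for Mxd3 and 4.86% for Mxd4.

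The genes with the pattern nearest to a member were found by the root mean square difference of log2 CPM, each centred on its own mean over the 9 libraries. They were sought among 10152 genes with a mean of at least 5 CPM, leaving out the members and predicted genes, clones and pseudogenes. For Mxd4 they were Phyh, a peroxisomal enzyme of branched fatty acid breakdown (0.215), Vwa5a (0.228), Zfr2 (0.279) and Pik3ip1, an inhibitor of PI3 kinase (0.305), where the median gene was at 1.22. For Mxi1 they were Castor1, the arginine sensor of the mTORC1 pathway (0.159), the class I antigen gene H2-D1 (0.164), the ubiquitin-conjugating enzyme gene Ube2h (0.192) and Syngr1 (0.202), with a median of 0.738. For Mxd3 they were Lancl2 (0.180), Hjurp, the chaperone of the centromeric histone (0.189), the histone gene Hist1h4a (0.190) and the splicing factor gene Srsf7 (0.203), with a median of 0.645. For Myc they were Kiz (0.196), Evi5l (0.213), Bphl (0.214) and Aaed1 (0.220), with a median of 0.714. These are descriptions over 9 libraries that share arms and populations.

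Genes for partners of the network were read from lists. Of the MLX branch, a parallel set of factors that answers to glucose, none of Mlx, Mlxip and Mlxipl passed in any comparison, and the mean of Mlx was 18.0 CPM in the MYC arm, 23.3 in control and 25.6 in the Her2 arm. Of 17 coactivators that MYC recruits, none passed with MYC or with Her2 against control (medians of -0.16 and -0.07, against 0.03 and -0.01 over all genes). Of 16 genes for SIN3 and histone deacetylase corepressors none passed with either oncogene. In L against B 1 of the 16 rose and 1 fell, beside 11.5% and 9.26% of all genes. In bi against B 1 rose and 1 fell, beside 7.88% and 5.11%. These counts lie near or below those shares. In both L and bi, Arid4b fell (-0.80 and -0.82, adjusted p = 0.00437 and 0.00663) and Sap30 rose (0.70 and 0.84, adjusted p = 0.0458 and 0.0331). Of 10 genes for MGA partners in Polycomb complex PRC1.6, Ring1 alone fell in L against B (-1.04, SE 0.22, adjusted p = 0.00922). That 1 of 10 lies near the 9.26% of all genes that fell there. None of the 10 passed with an oncogene.

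Of 15 genes that act on MYC protein stability, none passed with MYC against control, and Cip2a, whose product shields MYC from dephosphorylation, had the smallest p (-1.17, SE 0.22, adjusted p = 0.0599). Skp2, a ubiquitin ligase subunit, was lower with MYC than with Her2 (-0.87, SE 0.20, adjusted p = 0.0392). In L and in bi against B 3 of the 15 rose and none fell, beside 11.5% and 7.88% of all genes that rose, among them the mitotic kinase genes Plk1 (1.67 and 1.53) and Aurka (1.11 and 1.04).

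Averaged over the populations, textbook targets of MYC did not rise with MYC. Of 40 genes known to be induced by MYC, 1 fell and none rose, beside 0.264% and 0.101% of all genes (median -0.47, against 0.03 over all genes). Their summed level was higher in B MYC than in B control (8591 against 7815 CPM). It was lower with MYC than in control in L (6671 against 10640) and in bi (8353 against 12250). The transferrin receptor gene Tfrc fell from a mean of 431 to 198 CPM (-1.09, SE 0.17, adjusted p = 0.0383), and 39 of the 40 had a value below 0. Against Her2, 3 of the 40 were lower with MYC, beside 2.13% of all genes. The largest difference was in Odc1, the first enzyme of polyamine synthesis, at 73.1 CPM with MYC and 848 with Her2 (-3.57, SE 0.39, adjusted p = 0.00381), followed by the kinase gene Nme1 (-0.99, adjusted p = 0.0388). Odc1 had a mean of 212 CPM in control, and its log2 fold change with Her2 against control was 2.02 (SE 0.36, adjusted p = 0.0852). Of 12 genes known to be repressed by MYC, none passed against control (median 0.42). Their summed level was lower with MYC than in control in B (2975 against 3580 CPM) and bi (844.5 against 1790). In L it was higher (761.9 against 700). Against Her2, 3 of the 12 were higher with MYC and 1 lower, beside 2.44% and 2.13% of all genes. Among the higher were the growth arrest gene Gas1 (2.10, adjusted p = 0.00617) and Pdgfrb (1.57, adjusted p = 0.0336). The CDK inhibitor gene Cdkn1a was lower, at 13.3 against 91.6 CPM (-2.84, SE 0.44, adjusted p = 0.00995).

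Between populations, 3 of the 40 induced genes rose and 3 fell in L against B, beside 11.5% and 9.26% of all genes. Among them were Tfrc at 1.55 (SE 0.17, adjusted p = 0.000217) and the serine hydroxymethyltransferase gene Shmt2 at -1.10 (SE 0.29, adjusted p = 0.0260). In bi against B 2 of the 40 rose and none fell, beside 7.88% and 5.11%, Tfrc at 1.59 and Riox2 at 1.14. None of these counts exceeded the share over all genes. Of the 12 repressed genes, 2 rose and 7 fell in L against B, beside 11.5% and 9.26% of all genes, and 1 rose and 4 fell in bi against B, beside 7.88% and 5.11%. Gas1 fell in L from a mean of 342 to 54.8 CPM (-2.74, SE 0.29, adjusted p = 0.000166), while Cdkn1a rose in both L (1.90) and bi (1.87). Pdgfrb, which is also in the list of fibroblast markers, fell in bi (-2.35, SE 0.34, adjusted p = 0.00208).

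Proliferation genes differed between the same arms and populations. Of 20, 7 fell with MYC and none rose (median -1.19), beside 0.264% and 0.101% of all genes. The falls were led by the replication licensing genes Cdc6 (-1.75, adjusted p = 0.0230) and Mcm3 (-1.45, adjusted p = 0.0230). With Her2 none passed (median -0.24). In L and in bi against B, 10 and 11 of the 20 rose and none fell (medians 0.64 and 0.79), beside 11.5% and 7.88% of all genes that rose, with the cyclin gene Ccna2 at 1.99 and 1.68. The part of proliferation in the values of Mxd4, Mxd3 and the MYC targets was not tested. For the partner and target lists, all genes had medians of 0.04 in L and in bi against B and 0.02 between MYC and Her2.

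**Figure D4:**
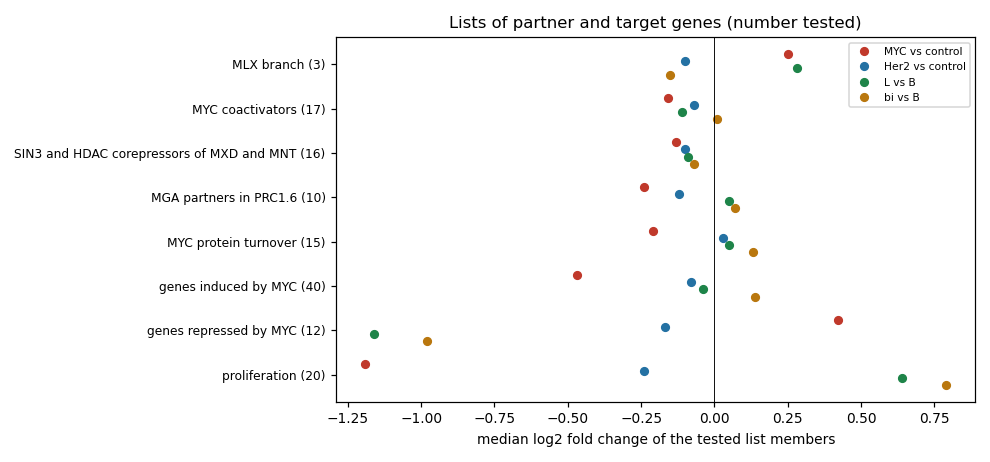
Median log2 fold change of the tested members of 8 lists (number tested in brackets) for MYC and Her2 against control and for L and bi against B. With MYC the proliferation list lies at -1.19 and the list of genes induced by MYC at -0.47, while the lists of coactivators and corepressors stay near 0.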

How the data were processed

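RNA of 9 libraries was sequenced, 1 for each population and arm. Each deposited table gives for a gene its estimated count of reads, its TPM and its lengths, per the file headers. The authors used Salmon 0.9.1 and mm10, per the submitters' processing notes, with an annotation release that is not given in the sources used here. Libraries were prepared with a stranded ribosomal-RNA depletion kit, per the labels' protocols, and RNA came from either of 2 extraction kits, not assigned to samples. Symbols were joined by Ensembl identifier (174 of 54281 genes had none).

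The deposited counts were rounded, filtered with filterByExpr by arm (minimum count 10, total 15), which kept 23834 genes, all 10 members among them, and scaled by TMM (edgeR 4.0.16, R 4.3.3). Each arm and population was compared in an additive quasi-likelihood model of population and arm on all 9 libraries (4 residual degrees of freedom), with Benjamini-Hochberg adjustment over all genes and a threshold of 0.05. No population and arm has a replicate, so the residual also holds different responses of the populations. SE is the log2 fold change divided by the root of F. Single-library log2 ratios use a prior count of 2. On simulated counts with 100 genes changed per fold size, the model recovered 43% of 2-fold and 97% of 4-fold changes for MYC against control (12 false calls among 22674 genes), and 33% and 100% for L against B (11 among 22769). The changed genes had a mean of at least 5 CPM, and Mxd3 (4.30) and Mycn (1.76) lie below that level. No other differences between populations or arms, and no different responses of the populations, were simulated. The alternatives were DESeq2 1.42.0, its size factors, other filters, other sets of libraries, no block, and limma 3.58.1 on the log2 of the deposited TPM + 0.5.

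Members and lists were chosen with earlier results of these data known. Named are all members, Erbb2, Ly6a and Epcam as checks, up to 2 rises and 2 falls per list (or the smallest p), and the 4 most alike genes for Myc, Mxd4, Mxi1 and Mxd3. Krt14 and Krt19 are named for their values in single libraries. A result that this rule would name is not reported here. Annotated genes overlap Mxd3 (Prelid1, 105 bases), Mxd4 (Gm42846, 1001 bases) and Mxi1 (AC133451.2, 5146 bases, and Gm10197, 201 bases) on the other strand. Max (Gm47218, 1319 bases) and Mxd1 (Gm44292, 2364 bases) have overlaps on the same strand, which strand cannot separate. Whether the counting used strand is not given in the sources used here, so reads of such pairs cannot be told apart.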

Additional observations from a re-analysis of the deposited data

Results flagged for a closer look

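Mycl moved in opposite directions in different populations, a difference that was not tested since each value is 1 library against 1. With MYC its log2 ratio to control was -0.77 for B, 0.83 for L and 1.45 for bi. With Her2 it was 1.21 in B and -0.76 in bi. The B values rest on 43 reads in control, 19 with MYC and 94 with Her2.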

How the results depend on the processing

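All 25 member comparisons with an unadjusted p under 0.05 kept their direction in the 19 alternative fits of each, while 22 of the other 35 changed sign in at least 1. The calls of Mycl in L and bi held in all 19, and those of Mxd4 in L, in bi and for MYC against Her2 in 18, each lost without the block. The calls of Myc and Mxd4 for MYC against control held in 8 and 9 of 19. For the same comparison Mycn was called in 2 and Mxi1 in 4 of the alternative fits.

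The number of the 10 members called moved as follows. For MYC against control, 2 became 1 with DESeq2 size factors and with limma on TPM, 4 without a filter and with DESeq2's test, 0 without the block, without L and without bi, and 0 to 2 with a library left out. For Her2 against control, 0 became 1 without a filter and with DESeq2. For MYC against Her2, 2 became 0 without the block, 4 without B, 1 without L or bi, and 1 to 3 with a library left out. For L against B, 4 became 1 without the block, 2 without the MYC arm, and 2 to 5 with a library left out. For bi against B, 5 became 3 with only that pair of populations, with limma, and without the MYC or the Her2 arm, 2 without the control arm, 1 without the block, and 2 to 5 with a library left out.

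The number of genes called for MYC against control, 87, became 54 with size factors, 944 without a filter, 229 with the stricter filter of 1 CPM in 3 libraries, 966 with DESeq2's test, 680 with only the pair of arms, 4 without the block, 844, 34 and 8 without B, L and bi, 610 with limma, and 6 to 492 with a library left out. For Her2 against control, 5 became 32 with size factors, 619 without a filter, 509 with DESeq2, 196 with only the pair, 125 without bi, 1 without L, 0 without the block, with the stricter filter and with limma, and 0 to 89 with a library left out. For MYC against Her2, 1089 became 2089 without a filter, 1874 with DESeq2, 6 without the block, 2070, 256 and 432 without B, L and bi, 650 with limma, and 217 to 1499 with a library left out. For L against B, 4953 became 2820 without the MYC arm. For bi against B, 3094 became 1430 without the block, 1960 and 1879 without the control and MYC arms, and 1843 to 3276 with a library left out. For bi against L, 179 became 698 without a filter, 93 with the stricter filter, 664 with DESeq2, 20 without the block, 116, 96 and 74 without the control, MYC and Her2 arms, 25 with limma, and 33 to 241 with a library left out. The causes were not tested. No paired analysis by replicate number was possible because each population and arm has 1 library, and the block above is the other factor of the design.

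Mycn in bi MYC (16 reads) and Mycl in B MYC (19 reads) are the values that depth limits most.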
